A study of Mus musculus with 12 samples.

Results

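Translation initiation and elongation factors were examined in RNA-seq data of mouse colonic epithelial cells that carried or lacked TFEB, a transcription factor of the lysosomal and autophagy programme. The factors were the rows of 3 expression tables whose gene symbol began with Eif or Eef and a digit from 1 to 6, without the kinases named Eif2ak and without symbols ending in y, and 67 of 47632 rows met this rule. They comprised 59 protein-coding genes, 7 processed pseudogenes and 1 lincRNA, Eif2c5, whose symbol is an older name of the Argonaute family and not that of a translation factor.

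Both genotypes were of the strain C57/BL6 and carried 2 floxed Tfeb alleles. Tfeb dIEC animals (labelled KO) also carried Cre recombinase under the villin promoter, which is active in the intestinal epithelium and not in the other cells of the gut wall, and Tfeb flox/flox animals (labelled WT) were the controls. Cells were taken with EDTA on day 0 before dextran sodium sulfate (DSS, a compound that injures the colonic epithelium), on day 4 of the DSS course and on day 11 after recovery. Each of the 6 groups held 2 animals, which were 10 and 12 weeks old on day 0, 12 weeks old on day 4 and 10 weeks old on day 11, so that age and day cannot be told apart between days 4 and 11. The labels give 2.5% DSS for every sample, and the methods of the study give a lower percentage.

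Each genotype had 1 FPKM value (fragments scaled to transcript length and to the number of mapped fragments) per gene and day, which the authors' Cuffdiff run had made from both animals. No spread between animals could be computed from these values, so no difference below has a test, and read depth is unknown. Differences are those of log2(FPKM + 1), Tfeb dIEC minus Tfeb flox/flox, which understates the change of genes near 1 FPKM. Genes were counted as higher or lower from a 2-fold difference on that scale, that is 1 in log2, among genes with at least 1 FPKM in either of the 2 values compared. The sum of all FPKM values was 975316 and 973878 on day 0, but 1464720 in Tfeb flox/flox and 820344 in Tfeb dIEC animals on day 4.

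Tfeb itself was listed at 0.901 FPKM in Tfeb flox/flox and 0.185 in Tfeb dIEC cells on day 0, at 1.08 and 0 on day 4, and at 1.18 and 0 on day 11. The 8 epithelial markers (Epcam, Cdh1, Vil1, Cldn7 and keratins) summed to between 7446 and 13359 FPKM, and none was at 0 in any group. On day 4, 3 of them were at least 2-fold higher in Tfeb dIEC cells (Krt20 at 3.19, Vil1 at 2.83 and Cdh1 at 2.70 in log2) and none was lower. Of the 4 colonocyte markers, Slc26a3 (2.99) and Aqp8 (1.42) were higher on that day, with 33.3 and 25.3 FPKM in Tfeb flox/flox cells, and none was lower, whereas on day 0 Aqp8 (-2.67) and Car4 (-1.54) were lower and none was higher. The leukocyte list summed to between 1.04 and 7.72 FPKM over 10 rows for 9 genes, with 3 to 8 rows at 0, and the 6 stromal and endothelial markers summed to between 0.598 and 2.93 FPKM. The goblet cell list summed to 31426 FPKM in Tfeb flox/flox and 5516 FPKM in Tfeb dIEC cells on day 4, against 6016 and 4821 FPKM on day 0. Its 5 genes divided on day 4, with Tff3 (28759 and 2166 FPKM) and Fcgbp lower in Tfeb dIEC cells and Muc2 (1.55) and Clca1 (1.59) higher. The part of these markers in the differences between the translation factors was not tested. Between the tables of days 4 and 11, 14.3% of the genes above 0 on both days in Tfeb flox/flox cells and 10.2% in Tfeb dIEC cells held the same value to the last digit. Of the factors, 4 of 59 and 4 of 62 did, and the median difference between the 2 days was 0.04 and 0.06 in log2, so day 11 values stand beside those of day 4 below and are not counted as a further comparison.

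Translation begins when eIF2 brings the initiator tRNA to the small ribosomal subunit, with eIF1, eIF1A and eIF3 bound to it. The eIF4F complex (the cap-binding protein eIF4E, the scaffold eIF4G and the helicase eIF4A with its cofactors eIF4B and eIF4H) recruits the mRNA. eEF1A then delivers each aminoacyl-tRNA, its GTP is renewed by eEF1B, and eEF2 moves the ribosome along. Several of these mRNAs begin with a 5' terminal oligopyrimidine (TOP) tract, through which their translation follows mTORC1, the kinase that also holds TFEB in the cytoplasm of fed cells.

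A few elongation factors took up much of the signal. The 67 factors summed to 6105 FPKM in Tfeb flox/flox and 7667 in Tfeb dIEC cells on day 0, or 0.626% and 0.787% of all FPKM. On day 4 the sums were 3093 and 5947 FPKM, or 0.211% and 0.725%, and on day 11 they were 3041 and 5963 FPKM. Tfeb flox/flox cells thus had a lower share of factor mRNA on days 4 and 11 than any of the other groups. Eef1a1, Eef1b2 and Eef2 alone made up 67.6% and 75.2% of the factor sum on day 0, and 42.3% and 67.7% on day 4. Of the members, 4 were listed at 0 in all 6 groups (Eif5a2, Eif4e1b, Eif1-ps3 and Eif2c5), 6 stayed under 1 FPKM throughout (those 4, Eef1a2 and Eif3j1), and 61 reached 1 FPKM in at least 1 group.

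**Figure D1:**
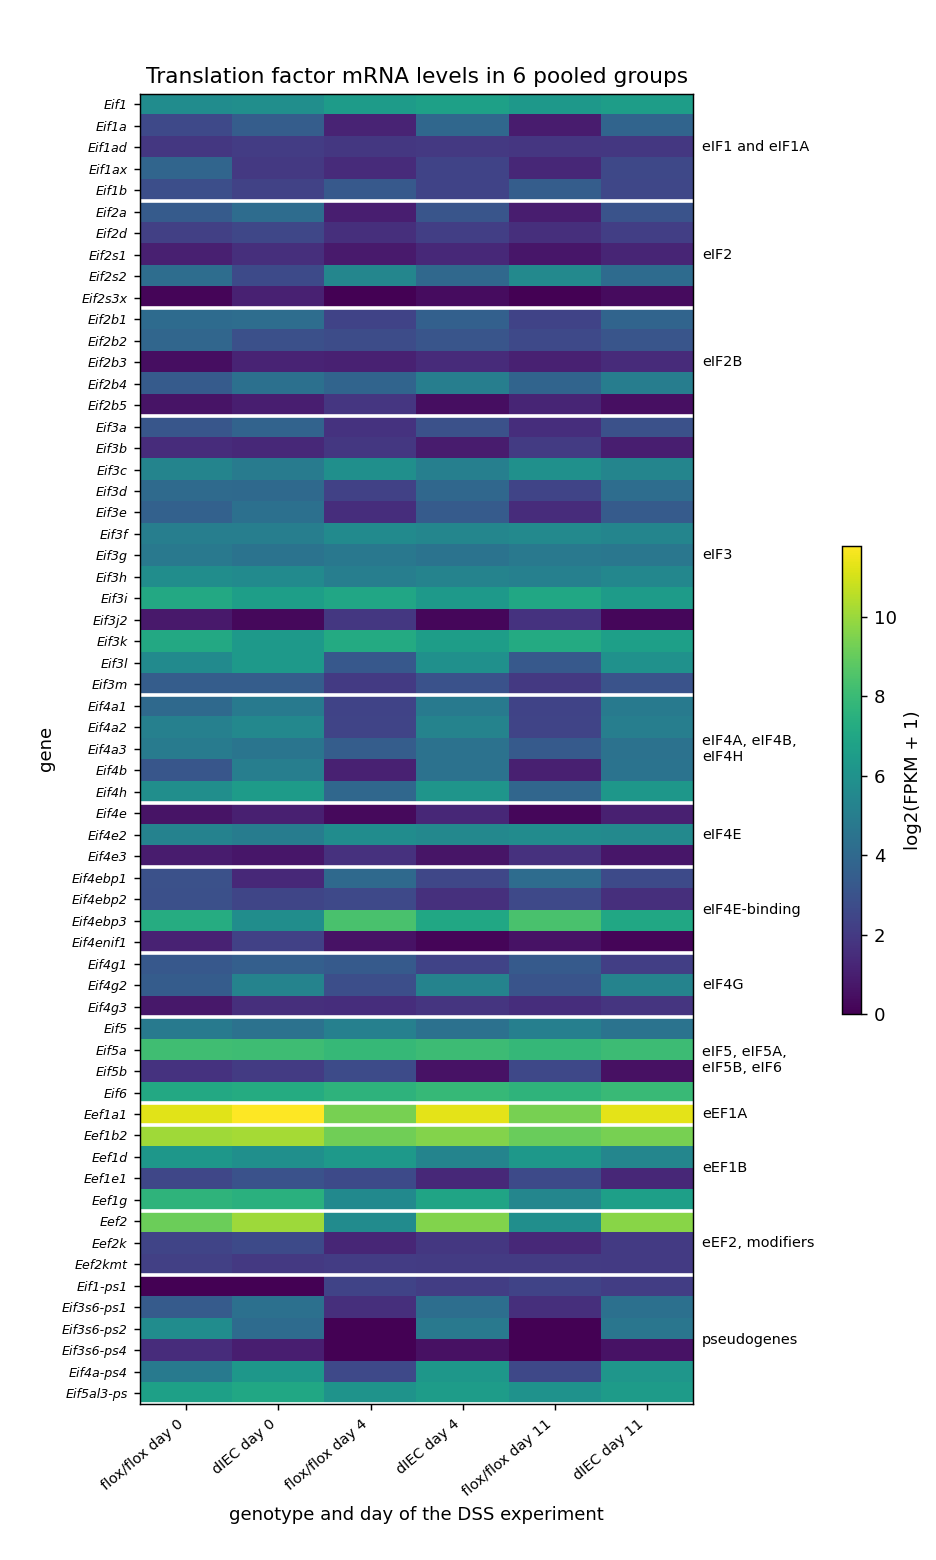
Level of the 61 factors that reached 1 FPKM in any group, as log2(FPKM + 1) by colour, with genes as rows ordered by role and the 6 pooled groups as columns. Eef1a1, Eef1b2 and Eef2 are the brightest rows, and in the Tfeb flox/flox columns of days 4 and 11 Eef2, Eif4a1, Eif4a2, Eif4b and Eif3l are darker than in the other 4 columns.

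On day 0, before injury, few factors differed between the genotypes. Of 57 factors that passed the filter, 4 through 1 genotype only, 5 were at least 2-fold lower in Tfeb dIEC cells, against 16.1% of all 9993 genes, and 4 were at least 2-fold higher, against 13.5%. The median difference of the factors was 0.14 in log2, and that of all genes was 0.06. After the length trend described below the split was 4 lower and 6 higher, against 11.5% and 11.6% of all genes. As deposited, the lower factors were Eif1ax, Eif3s6-ps2, Eif4ebp1, Eif2s2 and Eif4ebp3, and the higher ones were Eif4b, Eif4g2, Eif4a-ps4 and Eif4enif1. The factors nearest to the limit were Eif2b2 just outside it, at a log2 difference of -0.998, and Eif3s6-ps1, at 0.97.

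On day 4 more factors were past 2-fold than on day 0, as was a larger share of all genes, and more of the factors were higher than lower. Of 58 that passed the filter, 8 through 1 genotype only, 10 were at least 2-fold lower in Tfeb dIEC cells, against 26.1% of all 9371 genes, and 20 were at least 2-fold higher, against 25.6%. The median was 0.36 for the factors and 0.06 for all genes. When each column was first divided by its sum, the split was 2 lower and 32 higher, against 15.2% lower and 40.5% higher of all genes, and the median of all genes shifted by 0.60. Among genes of at least 10 FPKM, 4 of 34 factors were lower and 16 higher with a median of 0.72, while 39.9% of all genes at that level were lower and 26.8% higher with a median of -0.35. On day 11, 9 of 58 factors were lower, against 25.7% of all genes, and 22 were higher, against 26.1%, and after division by the column sum 2 were lower and 32 higher, against 14.9% and 41.0%.

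**Figure D2:**
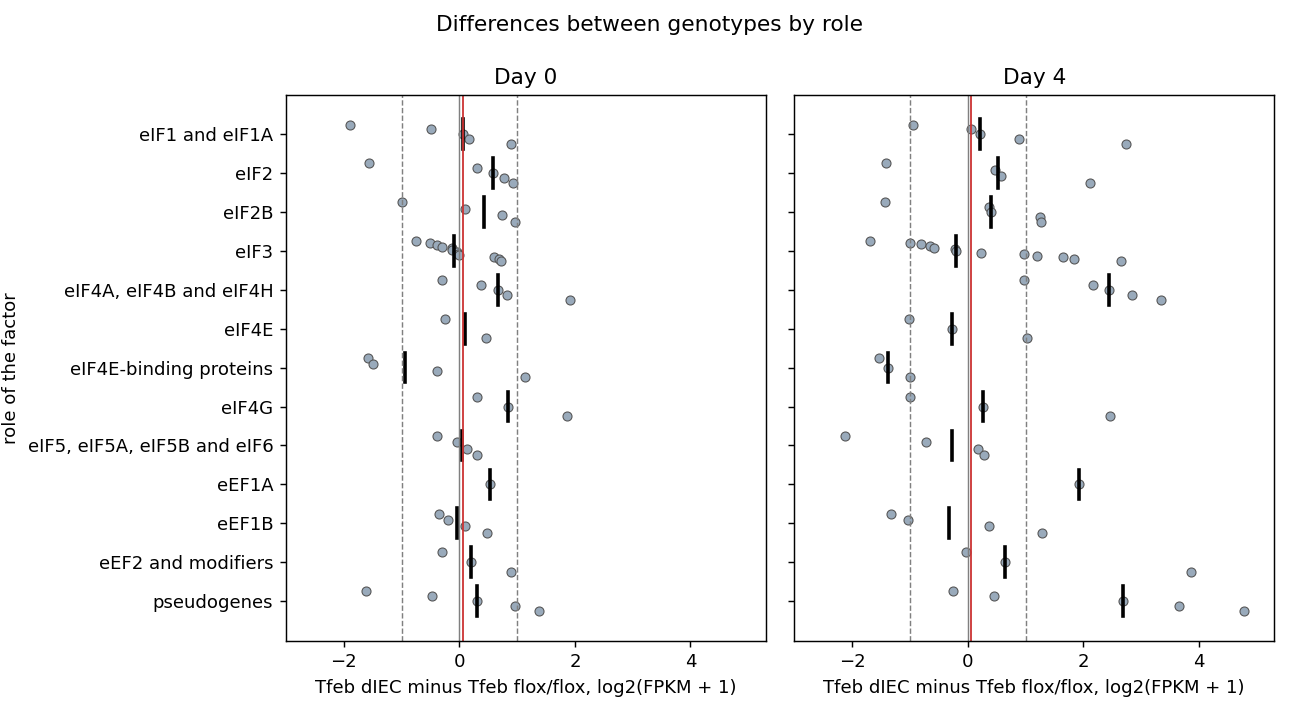
Difference between Tfeb dIEC and Tfeb flox/flox cells in log2(FPKM + 1) on day 0 and day 4, 1 point per factor that passed the filter, by role, with the median of a role as a black bar, the median of all genes as a red line and dashed lines at 2-fold. Most points lie within the dashed lines on day 0, and on day 4 the eIF4A, eIF4B and eIF4H row has a median of 2.44 and the eIF4E-binding row one of -1.39.

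The genotype difference on day 4 went with low values in Tfeb flox/flox cells. Set against day 0 in another table, which was normalized separately, 23 of 59 factors were at least 2-fold lower on day 4 in Tfeb flox/flox cells, against 25.7% of all genes, and 6 were higher, against 17.5%. In Tfeb dIEC cells 5 of 58 factors were lower on day 4, against 15.6% of all genes, and 4 were higher, against 9.26%. Divided by the column sum, the splits were 28 lower and 1 higher in Tfeb flox/flox cells, against 35.9% and 9.37% of all genes, and 4 lower and 5 higher in Tfeb dIEC cells, against 12.7% and 12.2%. That scaling shifted the median of all genes by -0.42 and 0.20. After the length trend the splits were 21 lower and 11 higher, against 17.6% and 17.8% of all genes, and 3 lower and 5 higher, against 10.6% and 11.8%. As deposited, the medians were -0.28 and -0.14, and -0.20 for all genes in both genotypes. These comparisons share their groups with those between genotypes, so the values of each are given side by side only. In a bulk sample, fewer cells of a type and less RNA per cell cannot be told apart.

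Differences on day 4 also moved with transcript length, taken as the median over the annotated transcripts of a gene. The Spearman correlation between length and the log2 difference was 0.38 over 9353 genes, which share the libraries, and -0.10 over the 58 factors. Among transcripts under 1500 nt, 47.0% of all genes were at least 2-fold lower in Tfeb dIEC cells and 15.7% higher with a median of -0.86, while 1 of 17 factors was lower and 4 were higher with a median of 0.23. Between 1500 and 2500 nt, 4 of 21 factors were lower and 11 higher, against 13.5% and 29.5% of all genes. From 2500 nt, 5 of 20 were lower and 5 higher, against 11.6% and 33.8%. After the running median of all genes over length was subtracted, 13 of 58 factors were lower and 19 higher with a median of 0.35, against 20.7% lower and 20.3% higher of all genes. The part of length in any 1 factor's difference was not tested.

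**Figure D3:**
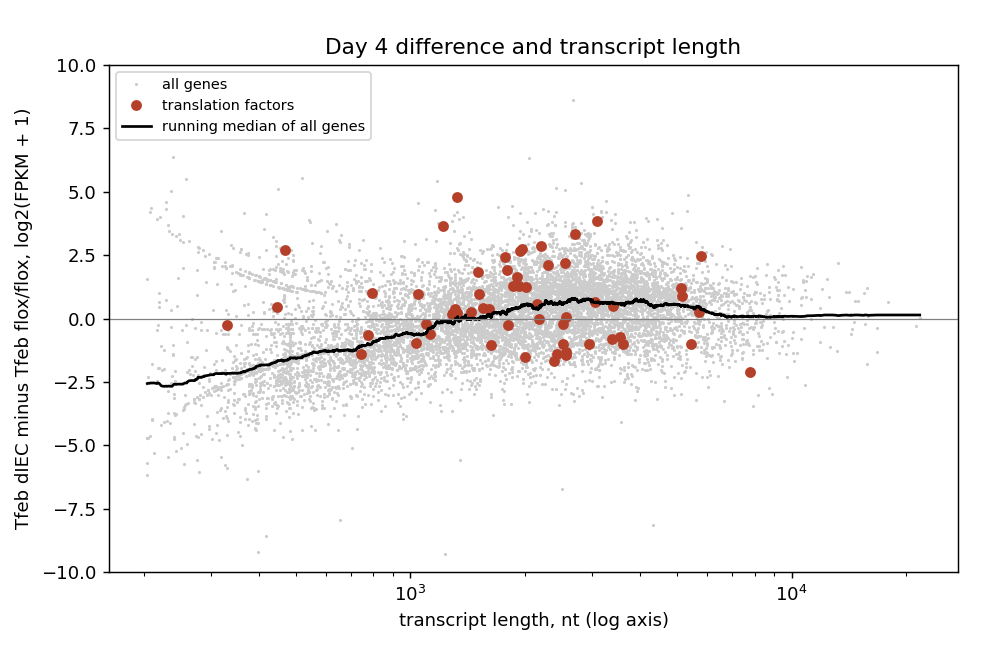
Difference on day 4 in log2(FPKM + 1), Tfeb dIEC minus Tfeb flox/flox, against transcript length on a log axis for 9271 genes of at least 200 nt (grey), the 58 factors (red) and the running median of all genes (black). The black line rises from below 0 for short transcripts to above 0 and comes down again over the longest ones, while the factors under 1500 nt have a median of 0.23.

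Eef1a1 (ENSMUSG00000037742.14, chr9:78478449-78489151 in GRCm38, minus strand) was the highest factor in every group. It encodes the tRNA-delivering elongation factor of most tissues. Tfeb flox/flox and Tfeb dIEC cells had 2452 and 3527 FPKM on day 0, 666 and 2524 on day 4, and 664 and 2543 on day 11. Tfeb flox/flox cells on days 4 and 11 were thus the 2 low groups. The log2 difference was 0.52 on day 0 and 1.92 on day 4, or 3.79-fold in FPKM. Of the 50-base sequences of Eef1a1 transcripts, 60.6% were found in no other gene, so reads shared with its many processed copies may have been split. Its paralogue Eef1a2, the form of muscle and neurons, reached 0.212 FPKM in Tfeb dIEC cells on day 0 and was listed at 0 in the other 5 groups.

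Eef2 (ENSMUSG00000034994.9, chr10:81176631-81182498, plus strand), the translocase, had the largest difference among protein-coding factors on day 4 on the log2(FPKM + 1) scale, while in FPKM alone Eif4b was further apart at 18.2-fold. Its FPKM was 568 and 1050 on day 0, 49.9 and 741 on day 4, and 55.5 and 815 on day 11, Tfeb flox/flox before Tfeb dIEC cells. The Tfeb dIEC values of days 0 and 4 lay above both Tfeb flox/flox values of these days. The log2 difference was 0.89 on day 0 and 3.86 on day 4, or 14.8-fold in FPKM, and 3.22 after the length trend was subtracted. Per Eef1a1, Eef2 stood at 0.232 and 0.298 on day 0, and at 0.0750 and 0.293 on day 4, so the ratio in Tfeb flox/flox cells was lower on day 4 than in the other 3 groups. Eef2k, the kinase that inhibits eEF2, had 4.37 and 5.18 FPKM on day 0 and 1.44 and 2.81 on day 4, a difference of 0.64, and its methyltransferase Eef2kmt had 3.26 and 3.19 on day 4.

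The eEF1B subunits, which exchange GDP for GTP on eEF1A in 1 complex, differed in direction. Eef1b2, the catalytic subunit eEF1Bα, had 1107 and 1185 FPKM on day 0 and 592 and 764 on day 4, a difference of 0.37. Eef1g, the structural eEF1Bγ, had 202 and 177 FPKM on day 0 and 47.0 and 116 on day 4, a difference of 1.29 that was 0.90 after the length trend. Eef1d, the second exchange subunit, had 73.7 and 57.3 FPKM on day 0 and 79.6 and 38.5 on day 4, a difference of -1.03 that was -0.21 after division by the column sum and -0.88 on day 11. Per Eef1b2, Eef1g stood at 0.183 and 0.150 on day 0 and at 0.0793 and 0.152 on day 4, while Eef1d stood at 0.0666 and 0.0483, then at 0.134 and 0.0504. In Tfeb dIEC cells both ratios were alike on the 2 days. Eef1e1, a scaffold of the multisynthetase complex that shares the gene family's name, had 5.36 and 1.53 FPKM on day 4, a difference of -1.33 that was under 2-fold with a pseudocount of 5 or after division by the column sum.

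The helicase group had the highest median on day 4 of the roles of protein-coding factors, while on day 0 its median of 0.67 was below the 0.84 of the eIF4G genes. Of its 5 genes, 4 were at least 2-fold higher on day 4, against 25.6% of all genes, and the fifth, Eif4a3, was at 0.98, with a median of 2.44 (3.14 after division by the column sum and 2.21 after the length trend). Eif4b (ENSMUSG00000058655.8, chr15:102073773-102097173, plus strand), the RNA-binding cofactor, had 7.77 and 32.2 FPKM on day 0, 1.13 and 20.6 on day 4, and 1.08 and 21.2 on day 11. The Tfeb dIEC values of days 0 and 4 were above both Tfeb flox/flox values of these days, and the log2 difference was 1.92 on day 0 and 3.34 on day 4. Eif4h, a related cofactor, had 54.9 and 87.7 FPKM on day 0 and 14.5 and 68.7 on day 4, a difference of 2.17. Eif4a1, the main helicase, had 15.4 and 27.8 FPKM on day 0, 4.23 and 27.3 on day 4, and 4.13 and 27.5 on day 11. Its paralogue Eif4a2 had 34.2 and 44.6, then 4.33 and 37.4, and 4.33 and 32.1 FPKM. In Tfeb dIEC cells the differences from day 0 to day 4 were within 2-fold, at -0.03 for Eif4a1 and -0.25 for Eif4a2, while in Tfeb flox/flox cells they were -1.65 and -2.73. Eif4a3, which belongs to the exon junction complex and not to eIF4F, had 29.0 and 23.3 FPKM on day 0 and 10.0 and 20.8 on day 4. Of the 50-base sequences, 71.6% of those of Eif4a1 and 89.4% of those of Eif4a2 occur in no other gene, and Eif4a2 exons also hold small nucleolar RNAs and overlap Rfc4 on the other strand.

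**Figure D4:**
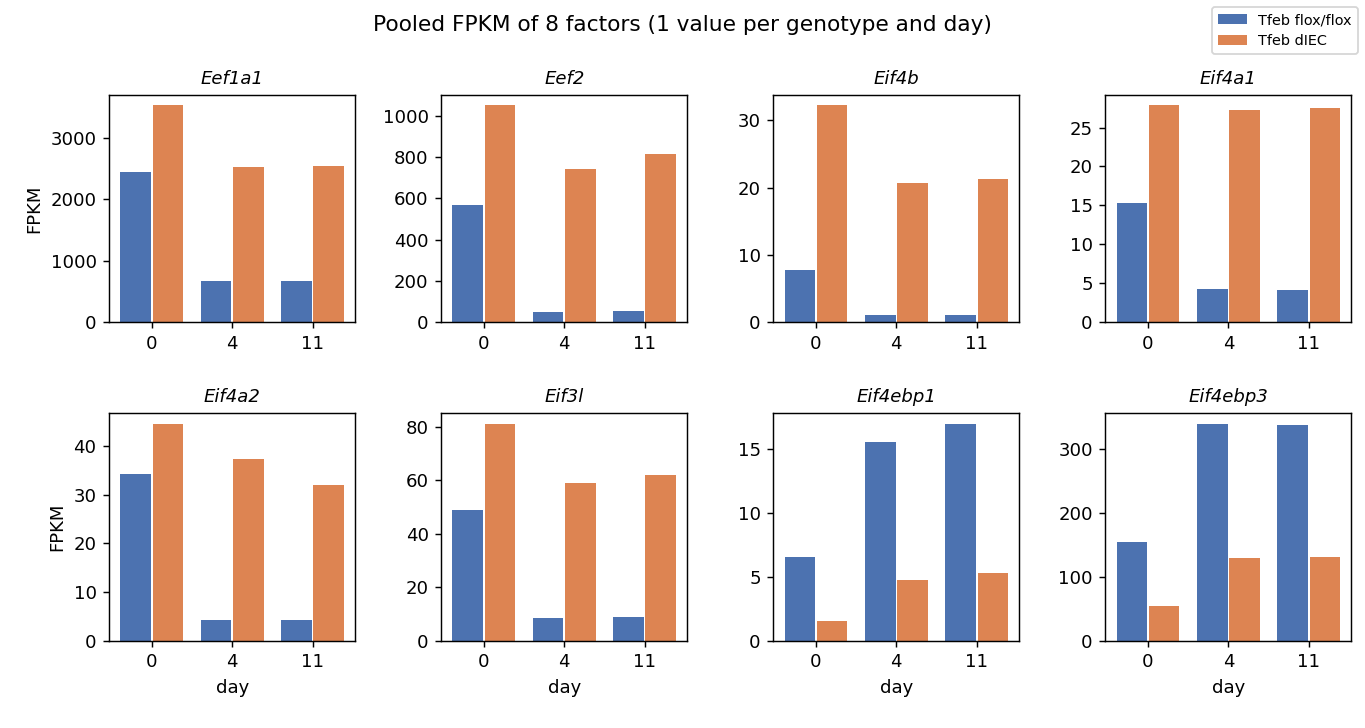
FPKM of 8 factors in Tfeb flox/flox (blue) and Tfeb dIEC cells (orange) on days 0, 4 and 11, 1 pooled value per bar and no error bars because values per animal were not used here. Eef1a1, Eef2, Eif4b, Eif4a1, Eif4a2 and Eif3l have short blue bars on days 4 and 11, and Eif4ebp1 and Eif4ebp3 have taller blue than orange bars on all 3 days.

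Eif4ebp1, Eif4ebp2 and Eif4ebp3, whose proteins bind and restrain eIF4E, stood on the other side. Eif4ebp1 (chr8:27260329-27276674, plus strand), a target of mTORC1 that represses translation by binding eIF4E, had 6.59 and 1.53 FPKM on day 0, 15.6 and 4.72 on day 4, and 17.0 and 5.28 on day 11. Eif4ebp3 had 154 and 54.1 FPKM on day 0, 339 and 129 on day 4, and 338 and 131 on day 11. Both were lower in Tfeb dIEC cells on every day, by log2 differences of -1.58 and -1.49 on day 0 and -1.53 and -1.39 on day 4. Eif4ebp2 had 6.27 and 4.57 FPKM on day 0 and 5.14 and 2.06 on day 4, a difference of -1.004 that lies just inside the limit of 2-fold. All 3 that passed the filter on day 4 were therefore counted as lower, against 26.1% of all genes, with a median of -1.39, but none was past 2-fold after division by the column sum, where the median was -0.55. Eif4ebp3 is a short gene on chromosome 18 that lies in a readthrough gene of the same strand, AC115631.1, with 34.5% of its 50-base sequences unique, and its difference was -0.30 after the length trend was subtracted. Eif4enif1, the transporter of eIF4E, was higher in Tfeb dIEC cells on day 0, with 1.21 and 3.86 FPKM (1.14). On day 4 it had 0.505 and 0.125 FPKM and did not pass the filter.

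The cap-binding protein and its scaffold gave no common direction. Eif4e was low, at 0.514 and 1.08 FPKM on day 0 and 0.236 and 1.51 on day 4, while its relative Eif4e2, a weak cap binder that represses translation, had 35.9 and 30.1, then 52.9 and 43.8 FPKM. Eif4e3, a further cap-binding relative, had 2.24 and 0.605 FPKM on day 4, a difference of -1.01. Eif4g2, a scaffold that cannot bind eIF4E and serves cap-independent initiation, had 9.67 and 37.7 FPKM on day 0, 6.10 and 38.2 on day 4, and 7.46 and 38.2 on day 11. It was among the higher factors on both days, at 1.86 and 2.46, and its Tfeb dIEC values stayed within 1 FPKM of each other. Eif4g1, the scaffold of eIF4F, had 8.47 and 10.7 FPKM on day 0 and 9.15 and 4.11 on day 4, a difference of -0.99, and its paralogue Eif4g3 had 1.95 and 2.55 FPKM on day 4.

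eIF3 is 1 complex of many subunits on the small ribosomal subunit, yet its mRNAs were neither alike in level nor in difference. Above 0, the highest subunit exceeded the lowest by 906-fold in Tfeb flox/flox and 600-fold in Tfeb dIEC cells on day 0. Eif3k (138 and 82.0 FPKM) and Eif3i (138 and 97.2 FPKM) led on day 0, and Eif3j1 was lowest at 0.152 and 0.162 FPKM. Over the 14 genes, the Spearman correlation between transcript length and FPKM was between -0.56 and -0.44 in the 6 groups, which share genes and library type. On day 4, 4 of 13 subunits that passed were at least 2-fold higher in Tfeb dIEC cells, against 25.6% of all genes, and 1 was lower, against 26.1%. After the length trend 4 were higher and 3 lower, against 20.3% and 20.7%, and on day 11 the deposited values gave 5 higher and 2 lower, against 26.1% and 25.7%. Eif3l (chr15:79075179-79094405, plus strand) had 49.0 and 81.1 FPKM on day 0, 8.58 and 59.1 on day 4, and 8.91 and 61.9 on day 11, a difference of 2.65 on day 4. Eif3e was at 1.84 (1.92 and 9.47 FPKM), Eif3d at 1.65 (3.88 and 14.3 FPKM) and the scaffold subunit Eif3a at 1.21 (2.28 and 6.57 FPKM), the last at 0.72 after the length trend. Eif3b, which forms the core with Eif3a, was at -0.99 and Eif3c at -0.81. Eif3i and Eif3k were at -0.59 and -0.64, Eif3f and Eif3g at -0.21 and -0.22, and Eif3h at 0.23. Eif3m, at 0.97 (3.01 and 6.85 FPKM), lay just under 2-fold. By its median of -0.21 the role was on the lower side, but division by the column sum moved that to 0.61 and the length trend to 0.38. Eif3j2 was the lower gene, with 2.74 and 0.158 FPKM, but 8.15% of its 50-base sequences are unique and the rest are shared with Eif3j1 or the overlapping Gm27325.

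**Figure D5:**
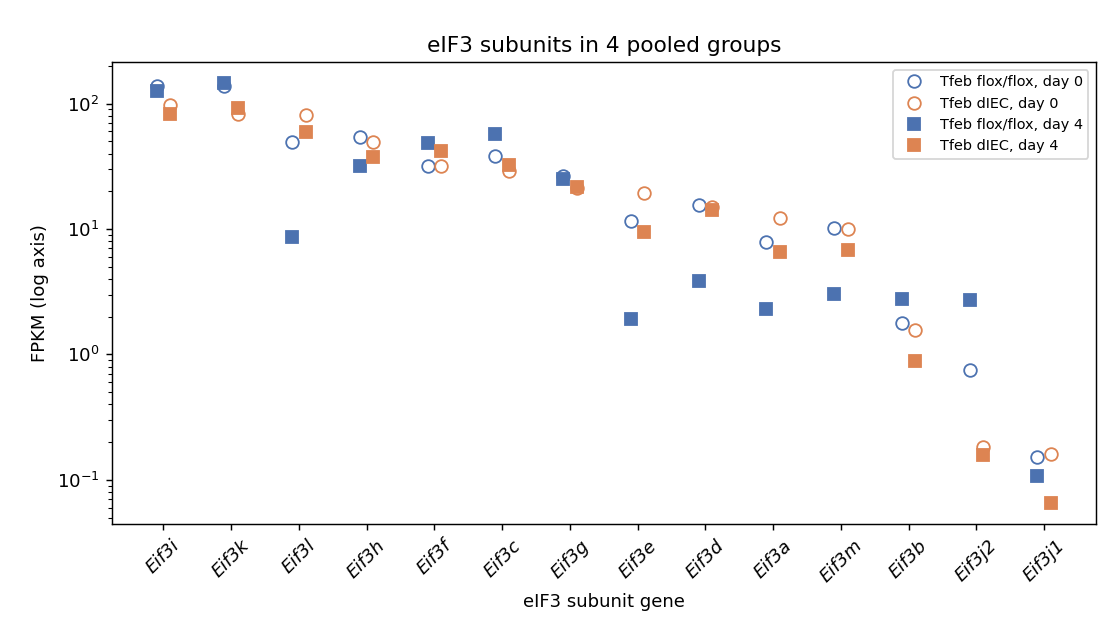
FPKM of the 14 eIF3 subunit genes on a log axis in Tfeb flox/flox (blue) and Tfeb dIEC cells (orange) on day 0 (open circles) and day 4 (filled squares), ordered by the Tfeb dIEC value of day 0. The blue squares of Eif3l, Eif3e, Eif3d and Eif3a, between 1.92 and 8.58 FPKM, stand apart below the other marks of the same gene, and those of Eif3i, Eif3k, Eif3f and Eif3g do not.

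The subunits of eIF2, the carrier of the initiator tRNA, differed in direction. Eif2s2 (eIF2β) had 17.6 and 5.304 FPKM on day 0, 41.7 and 15.03 on day 4, and 46.2 and 16.6 on day 11, so that each Tfeb dIEC value was below its Tfeb flox/flox value, by -1.56 and -1.41 in log2 on days 0 and 4. Divided by the column sum, the day 4 difference was -0.61. Eif2s1 (eIF2α) had 1.03 and 2.03, then 0.822 and 1.54 FPKM. Eif2s3x (eIF2γ) was at 0.120 and 1.12 FPKM on day 0 and listed at 0 in Tfeb flox/flox cells on day 4, with 0.304 FPKM in Tfeb dIEC cells, where 65.4% of its 50-base sequences are unique. Eif2a, a separate tRNA-binding factor and not a subunit, had 9.49 and 17.0 FPKM on day 0 and 1.004 and 7.71 on day 4, a difference of 2.12, and its exons overlap Serp1 on the other strand. Eif2d, another such factor, had 2.04 and 3.54 FPKM on day 4 (0.58). Of the 5 eIF2B genes, whose complex recharges eIF2 with GTP, Eif2b1 (4.14 and 11.3 FPKM, 1.26) and Eif2b4 (12.7 and 32.0 FPKM, 1.27) were higher on day 4 in Tfeb dIEC cells, and both were under 2-fold after the length trend. Eif2b5, the catalytic ε subunit, was at 2.64 and 0.352 FPKM (-1.43), but at -0.51 with a pseudocount of 5, at -0.97 after division by the column sum and at -0.76 on day 11. Its relatives Eif2b2 (0.36) and Eif2b3 (0.40) were within 2-fold on day 4.

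Among the scanning factors, Eif1 was the most abundant and close between genotypes, with 52.3 and 54.9 FPKM on day 0 and 88.5 and 102 on day 4. As deposited its day 4 difference was 0.21, but after division by the column sum it was 1.04, and that scaling likewise put Eif5a at 1.02 and Eif6 at 1.11. Eif1ad, a nuclear protein with an eIF1A-like domain, had 2.70 and 2.83 FPKM on day 4. The paralogue Eif1b had 6.09 and 4.03, then 8.85 and 4.11 FPKM, a difference of -0.95 on day 4. The 2 eIF1A genes stood apart on day 0. Eif1ax had 13.3 and 2.83 FPKM on day 0 (-1.90) and 1.75 and 4.12 on day 4 (0.90), while Eif1a had 5.04 and 10.3 FPKM on day 0 (0.90) and 1.26 and 14.1 on day 4 (2.74). The differences of Eif1ax thus had opposite signs on the 2 days. Factors that act later had both close and distant values. Eif5a, which carries hypusine and helps the ribosome through proline runs, had between 230 and 285 FPKM in all 6 groups, and Eif6, which keeps the large subunit apart until it is needed, had 198 and 239 FPKM on day 4, a difference of 0.28. Eif5 was at 33.8 and 20.04 FPKM (-0.73). Eif5b, the GTPase of subunit joining, was the lowest by difference, with 2.34 and 3.10 FPKM on day 0, 5.41 and 0.476 on day 4, and 4.91 and 0.459 on day 11, or -2.12 on day 4. It passed the filter on that day through Tfeb flox/flox cells only and was at -0.93 with a pseudocount of 5. Its transcripts are the longest of all factors at 7797 nt, and its exons overlap those of Rev1 on the other strand.

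Pseudogene rows share sequence with other genes to differing degrees, and reads in the shared part cannot be placed with certainty. Eif4a-ps4 had 28.1 and 74.6 FPKM on day 0 and 5.01 and 74.3 on day 4, and 4.28% of its 50-base sequences are unique, the rest being shared with Eif4a1 and others. Eif3s6-ps2, a copy of Eif3e, had 52.0 and 16.2 FPKM on day 0 (-1.62), and was listed at 0 in Tfeb flox/flox cells on days 4 and 11 with 26.6 and 23.5 FPKM in Tfeb dIEC cells. Eif3s6-ps1, another copy, had 1.98 and 18.1 FPKM on day 4 (2.68). Eif5al3-ps, the most abundant pseudogene row, had 104 and 129 FPKM on day 0 and 65.5 and 90.5 on day 4 (0.46). Eif1-ps1 was listed at 0 in both genotypes on day 0 and at 4.21 and 3.37 FPKM on day 4, and Eif3s6-ps4 reached at most 1.79 FPKM. In all, 19 of the 67 members had under 90% unique 50-base sequences. Counted over the 53 protein-coding factors that passed on day 4, 10 were lower, against 26.1% of all genes, and 17 higher, against 25.6%, with a median of 0.28.

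Factors of the TOP class were examined as a list of 10, namely Eef1a1, Eef1b2, Eef1d, Eef1g, Eef2, Eif3a, Eif3e, Eif3f, Eif3h and Eif4b. On day 0, 1 was at least 2-fold higher, against 13.5% of all genes, and none lower, against 16.1%, with a median of 0.31 (0.06 for all genes). On day 4, 6 were higher, against 25.6% of all genes, and 1 lower, against 26.1%, with a median of 1.25 (0.06 for all genes). After the length trend 4 were higher and 1 lower with a median of 0.81, against 20.3% and 20.7% of all genes, and after division by the column sum 8 were higher and none lower with a median of 1.96, against 40.5% and 15.2%. From day 0 to day 4, 6 of the 10 were at least 2-fold lower in Tfeb flox/flox cells, against 25.7% of all genes, with a median of -1.65, and none was past 2-fold in Tfeb dIEC cells, against 15.6% lower and 9.26% higher of all genes, with a median of -0.58. Pabpc1, the poly(A)-binding protein, is also a TOP mRNA and stood on the other side, with 546 and 275 FPKM on day 0 and 1153 and 162 on day 4 (-2.82). The tract is shown here because the class is defined by it. GENCODE M21 holds 18 protein-coding transcripts of the 10 genes in its basic set, and a transcript of each of 3 genes begins with C and at least 4 further pyrimidines. The first 20 bases of these transcripts are given 5' to 3' as they stand in that annotation, with the tract in capitals, at chr1:63177130-63177149 (plus strand), chr15:75909287-75909306 (minus strand) and chr7:108934417-108934436 (plus strand) in GRCm38.
Eef1b2-209: CTTTTTTTCCCTCagcgctg
Eef1d-217: CTCTCCTTTgcagtcctgag
Eif3f-201: CTCTTTCTCggcaagatggc
These 3 genes were at 0.37, -1.03 and -0.21 on day 4. The other members of the list have no annotated start with such a tract, which does not show that their mRNAs lack one. Whether the tract goes with the differences was not tested.

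TFEB belongs to the helix-loop-helix family that binds E-box letters, in lysosomal promoters often as GTCACGTG. The letters CACGTG, which read the same on both strands and are part of the longer motif, were therefore searched in RefSeq windows (GRCm38.p6) from 250 bases before to 50 bases after annotated starts. Windows were at hand for 46 of the 67 members. At least 1 window of 12 members (26.1%) held CACGTG, against 8.82% of 18718 genes of the tables, and 6 members (13.04%) held GTCACGTG on either strand, against 3.11%. Those 18718 genes include many that did not pass the filter. Among genes that passed on day 4, 731 held CACGTG and 5192 did not, and of the factors 11 held it and 29 did not. Members had 1.30 windows per gene and all genes 1.22. The 12 were Eef2, Eef2k, Eif1b, Eif3a, Eif3f, Eif3k, Eif4a1, Eif4e, Eif4g1, Eif4h, Eif5a and Eif5a2. Of the 11 that passed the filter on day 4, 5 were higher in Tfeb dIEC cells (Eef2, Eif3a, Eif4a1, Eif4e and Eif4h) and none lower with a median of 0.64, although Eif4e passed through Tfeb dIEC cells only, Eif4g1 lay just short of 2-fold lower at -0.99 (-1.45 after the length trend) and Eif3a was at 0.72 after the length trend. Eif1b was at -0.95. After centring on all genes Eif1b and Eif4g1 were past 2-fold lower and Eif4e was no longer past 2-fold. Of the 29 passing members without the letters, 8 were higher and 5 lower with a median of 0.36. Over all genes, 28.5% of those with the letters and 25.9% of those without were higher on day 4, and 19.97% and 20.59% were lower. On day 0 none of the 11 was past 2-fold, against 8.74% lower and 13.5% higher of all genes with the letters. A match is a description of these letters and shows no binding. Sites of some of the 12 members follow, picked without a fixed rule. They are 30 bases each, 5' to 3' on the strand of the gene, with CACGTG in capitals.
Eef2, chr10:81176576-81176605, first letter of the motif 43 bases before the start: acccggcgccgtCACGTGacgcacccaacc
Eif4h, chr5:134639488-134639517, 96 bases before the start: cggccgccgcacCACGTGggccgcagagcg
Eif4a1, chr11:69672595-69672624, 189 bases before the start: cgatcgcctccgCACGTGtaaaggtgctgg
Eif4g1, chr16:20672661-20672690, 54 bases before the start: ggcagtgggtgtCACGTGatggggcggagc
Eef2k, chr7:120842788-120842817, 31 bases before the start: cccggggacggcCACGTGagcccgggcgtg
Eif3k, chr7:28981915-28981944, 44 bases before the start: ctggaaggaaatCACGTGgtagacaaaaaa
Among these, Eef2, Eif4h and Eif4a1 were at 3.86, 2.17 and 2.44 on day 4, and Eif4g1, Eef2k and Eif3k at -0.99, 0.64 and -0.64, so genes with the letters lay on both sides of 0.

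Other parts of the translation apparatus were described by lists, whose counts on day 4 stand against 25.6% of all genes higher and 26.1% lower. Among the genes named, Eif2ak1, Abce1, Hbs1l, Eefsec and Gfm2 passed the filter through Tfeb dIEC cells only and Mrrf through Tfeb flox/flox cells only. Of the eIF2 kinases and phosphatase subunits, 2 of 5 that passed on day 4 were higher and none lower, the heme-regulated kinase Eif2ak1 at 1.34 (0.254 and 2.18 FPKM) and the phosphatase subunit Ppp1cb at 2.26 (1.04 and 8.73 FPKM). After the length trend 1 of the 5 was higher, against 20.3% of all genes, and after division by the column sum all 5 were, against 40.5%. Of the termination and recycling factors, 3 of 7 were higher (Abce1 at 1.50, Etf1 at 1.05 and Hbs1l at 1.06) and Denr was lower at -1.76, while after the length trend none was higher, against 20.3% of all genes, and 2 were lower, against 20.7%. Of the selenocysteine insertion genes, 2 of 6 were higher, Sephs2 at 3.37 (1.23 and 22.1 FPKM) and Eefsec at 2.09, the latter with 11.5 and 2.28 FPKM on day 0. The mitochondrial factors divided, with Gfm1 (2.44) and Gfm2 (2.00) higher and Mtif3 (-1.47) and Mrrf (-1.12) lower among 8. Of 6 regulators of the cap complex and poly(A) tail, the helicase Ddx3x was higher at 1.16 and Pabpc1 lower, while after the same subtraction none was higher and 3 were lower. Of 5 genes of mTORC1 and S6 kinase, the activating GTPase Rheb was higher at 1.28. Mtor, the kinase itself, was at -0.97 on day 4 and -1.12 on day 11, and 1 gene of the list was lower on day 4 after centring or after the length trend. Neither Dhps nor Dohh, which make hypusine on eIF5A, passed 2-fold on day 4 as deposited. On day 0, Rps6kb2, an S6 kinase, was the furthest of these genes, with 1.80 and 15.3 FPKM (2.54).

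The factors' differences on day 0 and day 4 come from separate tables and separate animals. Over the 54 factors that passed on both days, the Spearman correlation of the 2 differences was 0.62, and 0.65 after the length trends were subtracted, and over 8263 genes it was 0.47, or 0.35 for 8250 genes after the trends. The points share gene length and base composition, so this is a description. Of these 54 factors, 8 were past 2-fold on day 0 and 6 of them were past 2-fold in the same direction on day 4, while of 8263 genes 2127 were past 2-fold on day 0 and 56.8% of those were so in the same direction on day 4. They were Eif4b, Eif4g2 and Eif4a-ps4, which were higher in Tfeb dIEC cells on both days, and Eif2s2, Eif4ebp1 and Eif4ebp3, which were lower on both days. On day 4 none of the latter 3 was past 2-fold after division by the column sum, and on day 0 Eif4ebp3 was at -0.95 after the length trend and Eif4ebp1 at -0.83 with a pseudocount of 5.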

How the data were processed

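RNA-seq data of colonic epithelial cells from 12 animals in 6 groups were used, with genotype, day and age taken from the sample labels. Per the labels and the methods of the study, full-length cDNA libraries of EDTA-isolated cells (a SmartSeq2 variation) were sequenced as paired ends, and the submitters' processing notes name TopHat2 2.0.14, Cuffdiff 2.1.1 and mm10. The gene annotation and any use of strand in counting are not given in the sources used here. The authors deposited 1 table per day, in which each genotype has 1 FPKM value per gene made from both animals and normalized within that day. The same tables hold a fold change, a test statistic, a p-value and a q-value of the authors' own comparison, which were not used. Values per animal were not analysed here and read depth is unknown, so no spread between animals and no test was computed. A 95% order-statistic interval of each median over the factors, which are not replicates, served to judge whether an alternative moved that median, and each such interval included 0.

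The tables were joined by gene identifier. Differences were taken on log2(FPKM + 1) among genes of at least 1 FPKM in either value, and 2-fold was the limit for counts. Transcript length, sequence overlap by 50-base words and transcript starts came from GENCODE M21 (GRCm38), and start windows from RefSeq (GRCm38.p6). The members, roles, gene lists and limits were chosen with earlier results of these data known. Named factors were the 2 most abundant of each role, the 5 furthest in each direction on day 0 and day 4, those listed at 0 in 1 genotype only, the complete elongation, eIF2B and eIF4E-binding roles and the paralogue pairs, and further members were named after their values were seen. Named genes of the lists were those past 2-fold on day 4, and Rps6kb2 and the other members of small lists were chosen after their values were seen. Alternatives were a pseudocount of 0.1 or 5 FPKM, no filter or one of 10 FPKM, division by the column sum, centring on all genes, subtraction of a running median over length (301 genes), limits of 1.5-fold and 4-fold, and, for days 4 and 11, only factors whose values differ between the 2 tables. The software was scipy 1.17.1, pandas 2.3.3 and numpy 2.4.6 under Python 3.11.15, with matplotlib 3.10.9 for plots, and the computations were tested on simulated data.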

Additional observations from a re-analysis of the deposited data

How the results depend on the processing

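The median difference of the factors was 0.14 before injury and 0.36 on each later day. On day 0 it was -0.00284 after the length trend was subtracted, and on days 4 and 11 it was 1.06 and 1.08 after division by the column sum. From day 0 to day 4 in Tfeb dIEC cells, the median of -0.14 was 0.0672 after division by the column sum, 0.0568 after centring and 0.0189 after the length trend, and the cause was not tested. Counts of lower factors on day 4 (10) were 3 with a pseudocount of 5, 4 at 10 FPKM, 2 after division by the column sum, 17 at 1.5-fold and 1 at 4-fold, and on day 11 (9) they were 3, 3, 2, 14 and 1. Of all genes, 39.9% were lower at 10 FPKM and 15.2% after division by the column sum on day 4, and 39.5% and 14.9% on day 11. Counts of higher factors on day 4 (20) were 32 after division by the column sum, against 40.5% of all genes, and 12 at 4-fold, and on day 11 (22) 12 at 4-fold. On day 0, 0 factors were past 4-fold in either direction, 17 were higher at 1.5-fold and 10 with a pseudocount of 0.1. For the changed pseudocounts and limits the share of all genes was not computed, so those counts are not read as results about the factors. Of the 20 higher factors of day 4, 15 stayed past 2-fold with both pseudocounts, after division by the column sum, after centring and after the length trend: Eef1a1, Eef2, Eif1a, Eif2a, Eif3d, Eif3e, Eif3l, Eif4a1, Eif4a2, Eif4b, Eif4g2, Eif4h and the pseudogenes Eif3s6-ps1, Eif3s6-ps2 and Eif4a-ps4. Of the 10 lower factors, 0 did, and of the 9 factors past 2-fold on day 0, 6 did. Division by the column sum raised the day 4 median of all genes by 0.60, which makes higher calls easier to keep and lower calls harder. The share of all genes that stayed was not computed, so the day 4 counts do not show that the higher factors are the firmer ones. No replicate was left out and read depth is unknown, because the animals of a group share 1 value in these tables. No paired analysis was possible because the values used here are 1 pooled FPKM per genotype and day, and reads of single animals were not analysed here.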
